A study of Homo sapiens with 4 samples.

Results

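CCR4, CCR7, CCR8, IL7R and LRRN3, 5 T-cell genes of tissue homing and memory, were followed in HUT78 cells. They were taken by gene symbol from the platform's probe-to-gene annotation. Each had 1 probe set, so 5 of the 14884 genes with a symbol are described. HUT78 is an established human line derived from Sézary syndrome, a cutaneous T-cell lymphoma with malignant cells in the blood, and was grown in medium with serum. Total RNA was hybridised to 4 Affymetrix whole-transcript arrays, 1 sample on each. For 2 arrays the cells had received CSH71 (250 nM, 30 h), and for 2 they were untreated. No time in culture is recorded here for the untreated cells. CSH71 is presented in the series as a chemical aimed at the lipid-binding part of the kinase p38γ, and the comparison asks which transcripts differ after exposure. The group of each array was read from its title. HUT78 is a single line, and the labels do not say that the duplicates were separate cultures, so errors and p-values reflect the spread among these arrays alone and could be technical.

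The 5 genes were chosen by symbol with their measured log2 differences between CSH71 and untreated cells already known, so these differences are given as a description and without a test. Values are probe-set intensities on a linear scale. Differences and their standard errors (SE) are in log2(intensity + 16) and come from a limma fit over all 14884 genes. The added constant shrinks the differences of dim genes, strongly where intensities are near 16. For such genes the values given understate the plain log2 difference. A gene was called at a Benjamini-Hochberg adjusted p under 0.05. These are bulk samples, so fewer cells with a transcript and less of it per cell cannot be told apart.

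Homing of T cells is steered by chemokine receptors, G-protein-coupled receptors that respond to ligands displayed by a tissue. CCR4 binds CCL17 and CCL22 and marks skin-homing and type 2 helper memory cells. It is carried by many cutaneous T-cell lymphomas and is the target of the antibody mogamulizumab. CCR7 binds CCL19 and CCL21 and brings naive and central memory cells into lymph nodes, and CCR8 binds CCL1 and is found on skin memory and regulatory T cells. IL7R encodes the alpha chain of the interleukin-7 receptor, which sustains naive and memory cells. LRRN3 encodes a leucine-rich repeat membrane protein first known from neurons, and its RNA is abundant in naive T cells of blood.

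RefSeq sequence in front of the annotated start was at hand for 3 of the 5 genes: CCR4 and LRRN3, which were lower with CSH71, and IL7R, which was higher. The 250 bases before the start are shown so that the regions of genes with opposite differences can be set side by side. They are given 5′ to 3′ on the plus strand of GRCh38.p14, at chr3:32951394-32951643, chr5:35856641-35856890 and chr7:111090877-111091126 in the order printed. Capitals mark matches, on either strand, to 7 short motifs of factors active in T cells.
CCR4: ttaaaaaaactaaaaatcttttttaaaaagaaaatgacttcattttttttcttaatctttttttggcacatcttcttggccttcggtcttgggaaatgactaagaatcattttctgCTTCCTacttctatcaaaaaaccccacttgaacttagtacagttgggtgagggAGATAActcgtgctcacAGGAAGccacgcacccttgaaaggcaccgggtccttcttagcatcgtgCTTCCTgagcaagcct
IL7R: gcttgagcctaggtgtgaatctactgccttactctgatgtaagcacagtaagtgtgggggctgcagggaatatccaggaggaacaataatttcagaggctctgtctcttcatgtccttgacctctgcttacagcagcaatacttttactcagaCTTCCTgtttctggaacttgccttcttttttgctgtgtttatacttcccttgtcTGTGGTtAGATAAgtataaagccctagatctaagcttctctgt
LRRN3: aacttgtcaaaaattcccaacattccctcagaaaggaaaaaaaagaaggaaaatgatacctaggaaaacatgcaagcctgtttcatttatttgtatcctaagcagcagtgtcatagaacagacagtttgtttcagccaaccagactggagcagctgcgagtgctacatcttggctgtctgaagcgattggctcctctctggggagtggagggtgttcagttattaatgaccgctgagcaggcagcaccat

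The motifs searched were AGGAAG for ETS factors, AGATAA for GATA factors, TGTGGT for RUNX, TGANTCA for AP-1, TGACGTCA for the cAMP response element, TTCNNNGAA for STAT and TGGAAA for NFAT, none of which contains another. The CCR4 window held AGGAAG or its complement at 3 places and AGATAA at 1. The IL7R window held AGGAAG in complement at 1 place, and TGTGGT and AGATAA 1 base apart, ending 31 bases before the start. The LRRN3 window held none of the 7. Among 35116 human promoter windows of the same length, 28.7% held AGGAAG, 9.17% AGATAA and 11% TGTGGT, so each match is common. The 4 motifs absent from all 3 windows were found in 6.57% (AP-1), 1.65% (cAMP response element), 6.57% (STAT) and 18% (NFAT) of promoters, and absence says only that these letters are not in this stretch. The regions of CCR4 and IL7R, whose differences had opposite signs, thus shared matches to the ETS and GATA motifs. CCR4 and LRRN3, whose differences had the same sign, could share none, as the LRRN3 window held no match. The part of these motifs in the differences was not tested.

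All 3 homing receptors had lower signal on the CSH71 arrays. CCR4 had intensities of 4249 and 4396 on the untreated arrays, replicates 1 and 2, and 3501 and 3283 on the CSH71 arrays. The lowest untreated array lay above the highest treated one. Its mean went from 4322 ± 103 to 3392 ± 154 (SD, n = 2 per group), a log2 difference of -0.35 ± 0.17 (SE) or 0.785 times the untreated level.

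CCR7 read 2429.9 and 2576 without the compound and 1896 and 1722 with it. The groups again did not overlap. The means were 2503 ± 103 and 1809 ± 123 (SD, n = 2 per group), a log2 difference of -0.47 ± 0.17 (SE) or 0.724 times.

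CCR8 showed the largest difference of the 3 receptors. It read 1802 and 1847 in untreated cells against 1317 and 1188 in treated cells, without overlap. The means were 1824 ± 32.2 and 1253 ± 91.2 (SD, n = 2 per group), a log2 difference of -0.54 ± 0.17 (SE) or 0.688 times. The standard errors are wide beside the distances among the 3 receptors, whose differences lay 0.19 apart at most on the log2 scale, so their order is not resolved.

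IL7R went the other way. It read 1241 and 1427 in untreated cells and 2339.8 and 2032 in CSH71-treated cells. Each treated array lay above each untreated one, although the replicates were further apart than for any other of the 5 genes, by 0.199 and 0.202 on the log2 scale. The means were 1334 ± 131 and 2186 ± 218 (SD, n = 2 per group), a log2 difference of 0.71 ± 0.18 (SE) or 1.63 times.

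LRRN3 had the largest difference of the 5 genes. Its intensities were 1730.0 and 1681 without CSH71 and 915 and 845 with it. The treated arrays lay close together and far below the untreated ones, with a gap of 0.865 on the log2 scale between the nearest arrays of the groups. The means were 1705 ± 35.0 and 880.1 ± 49.9 (SD, n = 2 per group), a log2 difference of -0.94 ± 0.17 (SE) or 0.520 times.

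**Figure D1:**
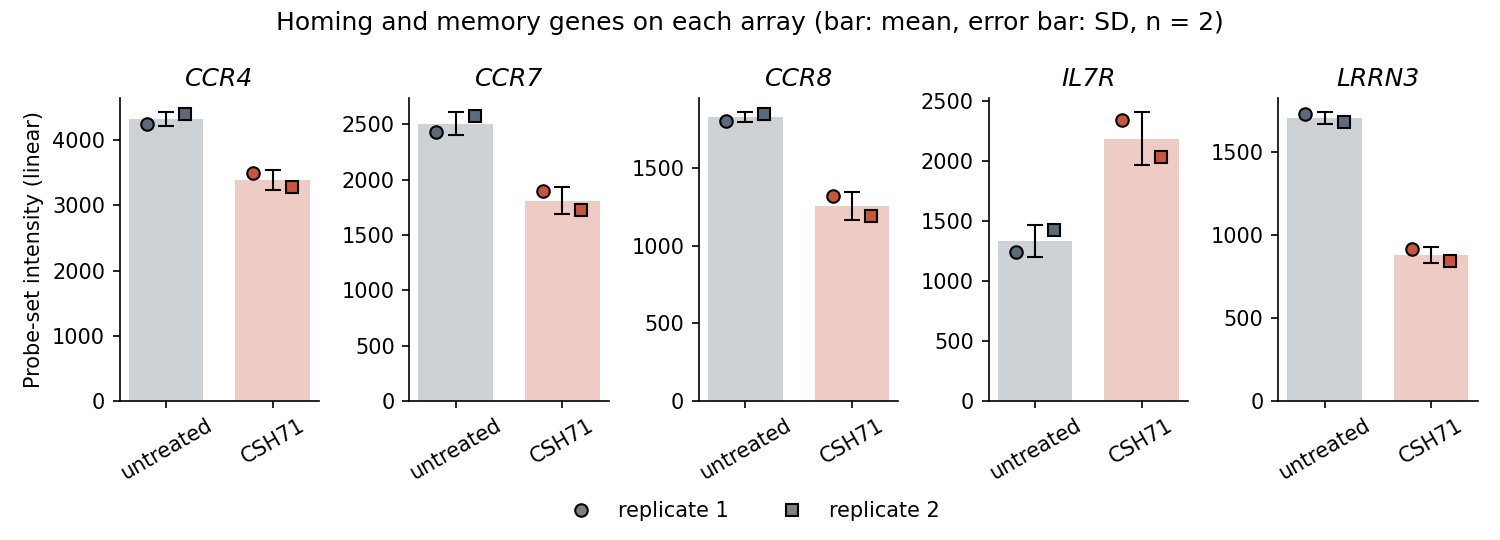
Probe-set intensity (linear axis from 0, a separate scale for each gene) of CCR4, CCR7, CCR8, IL7R and LRRN3 on the 2 untreated and 2 CSH71 arrays. Points are arrays, bars are means and error bars are SD; the treated points lie below the untreated points for CCR4, CCR7, CCR8 and LRRN3 and above them for IL7R.

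In all 5 genes the gap between the nearest arrays of the groups, from 0.278 in CCR4 to 0.865 in LRRN3, was wider than any gap between replicates, the widest of which was 0.202. Groups that do not overlap are common with 2 against 2: 31.6% of all genes had them, 15% higher and 16.6% lower with CSH71. By limma in the setting reported, 0 of the 5 genes were called, against 0.047% of all genes (0.0403% higher and 0.00672% lower). At an unadjusted p under 0.05 stood 4 of the 5, all but CCR4, and 5.11% of all genes. As the genes were chosen for their differences, nothing is read from these counts. Pooled replicate SDs of the 5 genes ran from 0.052 in CCR4 to 0.142 in IL7R, below the median of 0.179 over all genes. The SE values of 0.17 to 0.18 are wider than these SDs imply, since limma draws each variance towards that of all genes.

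Set against all 14884 genes, the differences had very different ranks. At or below the value of LRRN3 stood 9 genes, LRRN3 included. At or below CCR8 stood 176, at or below CCR7 313 and at or below CCR4 806, and at or above IL7R stood 114. The central 90% of genes lay between -0.36 and 0.42, so CCR4 lay just inside that span and the other 4 outside.

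Ratios between genes within an array do not depend on how bright that array is as a whole. They are given here as a description. The log2 ratio of CCR4 to CCR7 was 0.80 and 0.77 on the untreated arrays and 0.88 and 0.92 on the treated ones. That of CCR7 to CCR8 was 0.43 and 0.48, then 0.52 and 0.53. That of CCR4 to CCR8 was 1.23 and 1.24, then 1.40 and 1.45. All 3 ratios were higher on each treated array than on each untreated one, with shifts of 0.12, 0.07 and 0.19. The last ratio follows from the first 2, and the shifts were not tested, so the order of the 3 receptors stays unresolved. The ratio of IL7R to LRRN3 shifted by 1.65, from -0.47 and -0.23 to 1.34 and 1.25. The ratio of CCR7 to IL7R shifted by -1.17, from 0.96 and 0.85 to -0.30 and -0.24.

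The other genes of these pathways were taken from lists that, like the 5 genes, were drawn up with earlier results of these data known. Of 256 listed genes, 171 were measured under the symbol listed. One of them was called, the activation marker CD69, which rose. Over all genes the median log2 difference was -0.01, with 7 of 14884 genes called. An unadjusted limma p under 0.05 was found in 5.11% of all genes, and groups that do not overlap in 31.6%. The list counts below stand beside these shares.

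The ligands of the 4 receptors had overlapping groups throughout. All 8 were measured, 0 were called in either direction by limma, and 0 reached an unadjusted p under 0.05. Their median log2 difference was -0.08. CCL17, a CCR4 ligand, read 322 and 242 untreated and 238 and 291 treated, a log2 difference of -0.08 ± 0.21. CCL22, the other, was dim at 50.9 and 29.1 against 37.3 and 30.2 (-0.15 ± 0.23).

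For CCR7, CCL19 had a log2 difference of -0.19 ± 0.22 and CCL21 of 0.12 ± 0.21. For CCR8, CCL1 had -0.08 ± 0.20, and CCL18, also described as a CCR8 ligand, had -0.06 ± 0.18. IL7 itself read 14.8 to 38.7 over the 4 arrays (0.16 ± 0.30) and TSLP, the cytokine that uses IL7R together with CRLF2, read 19.5 to 41.6 (-0.12 ± 0.27). At such low intensities the deposited values, which carry no background level, cannot show whether these RNAs were present.

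Among 17 other chemokine receptors measured, limma called 0, and 0 reached an unadjusted p under 0.05. The difference was positive in 10 and negative in 7, with a median of 0.08. Groups did not overlap in 5, 3 higher and 2 lower, beside 31.6% of all genes. CCR4, CCR7 and CCR8, chosen with their differences known, were the 3 lowest of the 20 receptors. They stood at brightness percentiles of 93.4 to 99.3 among all genes, whereas 3 of the 17 others were brighter than the median gene. The part of brightness in this ranking was not tested. The smallest p-value belonged to CCRL2, an atypical receptor that binds chemerin, at 0.36 ± 0.17 (limma adjusted p = 0.989). It was followed by the interleukin-8 receptor CXCR1 at 0.34 ± 0.17 (0.999) and the scavenging receptor ACKR4 at 0.35 ± 0.24 (0.999). Both were dim: CXCR1 read 60.6 to 90.5 over the 4 arrays, and ACKR4 10.8 to 30.2 with overlapping groups.

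A pair of receptors was added after their values had been seen. CXCR4, the CXCL12 receptor, read 3963 and 4232 untreated and 4359 and 4153 treated, with overlapping groups and a log2 difference of 0.05 ± 0.17. CCR10, another skin-homing receptor, read 134 and 136 untreated and 173 and 124 treated (0.10 ± 0.20). Whether these differences depart from those of CCR4, CCR7 and CCR8 was not tested.

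**Figure D2:**
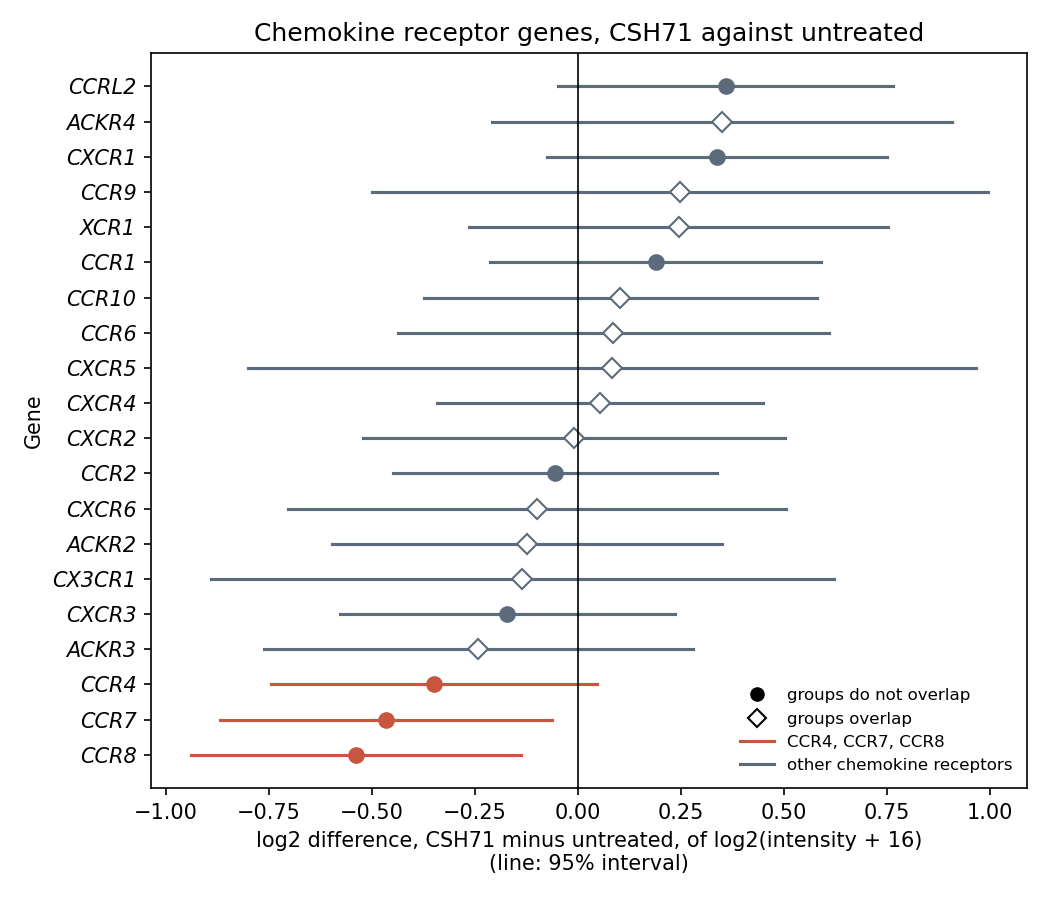
Log2 difference (CSH71 minus untreated, of log2 of intensity + 16) of 20 chemokine receptor genes, with 95% intervals from limma and sorted by size; filled circles have groups that do not overlap and open diamonds have groups that overlap. CCR4, CCR7 and CCR8, chosen with their differences known, lie at the bottom, from -0.35 to -0.54, and the others between -0.24 and 0.36. Of the 17 others, 3 were brighter than the median gene.

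Other chemokines, ligands of receptors outside the 5 genes, held 0 calls by limma among 30 measured, with a median of 0.07. At an unadjusted p under 0.05 stood 2 of them, CCL8 (0.48 ± 0.17, adjusted p = 0.927) and the eosinophil attractant CCL24 (0.49 ± 0.20, 0.973). Next came the CXCR3 ligand CXCL11 (0.45 ± 0.23, 0.999). All 3 were dim, at no more than 64.2 on any array.

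In the machinery that carries chemokine receptor signals, 0 of 11 measured genes were called, 1 had an unadjusted p under 0.05, and the median difference was -0.06. That gene was RGS1, which encodes a GTPase-activating protein that shuts off G-protein signals from chemokine receptors. It read 961 and 938 in untreated cells and 1933 and 1767 in treated cells, without overlap. Its log2 difference was 0.95 ± 0.17 and did not pass (limma adjusted p = 0.515). RGS14, of the same protein family, was at -0.27 ± 0.16 and RHOH, a GTPase of blood cells needed for T-cell receptor signalling, at -0.25 ± 0.18 (adjusted p = 0.999 each). DOCK2 and ELMO1, which activate Rac during migration, were at 0.01 and 0.05 and were looked at after the values were known.

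Rolling and adhesion genes showed 0 calls among 8 measured and a median of -0.04. SELPLG encodes PSGL-1, the protein that carries the skin-homing carbohydrate CLA. It read 2394 and 2557 untreated and 1979 and 1871 treated, without overlap, a log2 difference of -0.36 ± 0.17 (limma adjusted p = 0.989). The integrin-associated protein CD47 was at 0.18 ± 0.18 and the integrin ligand ICAM1 at -0.23 ± 0.23 (adjusted p = 0.999 each). Of the 8, 0 had an unadjusted p under 0.05.

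The partners and signalling genes of the interleukin-7 receptor held 0 calls by limma among 19 measured and 0 at an unadjusted p under 0.05, and the median was -0.01. CRLF2, the TSLP receptor chain that pairs with IL7R, was at -0.30 ± 0.18. The kinases JAK1 (-0.01 ± 0.17) and JAK3 (-0.10 ± 0.19) act directly below the receptor, and each had overlapping groups. The smallest p-values were those of GFI1, a repressor in lymphocytes, at -0.53 ± 0.25 (adjusted p = 0.989), of the transcription factor STAT5A at -0.32 ± 0.17 (0.999) and of BCL2, the survival protein raised by interleukin-7, at 0.33 ± 0.19 (0.999). BCL2 read 458 and 567 untreated and 670 and 622 treated, and CISH, a feedback inhibitor induced by STAT5, was at -0.28 ± 0.19. CRLF2, JAK1, JAK3 and CISH were picked after their values were seen.

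Of the other receptors that use the common gamma chain, 3 were measured and 0 were called. IL21R, the interleukin-21 receptor, read 136 and 183 untreated and 308 and 244 treated, without overlap. Its log2 difference of 0.74 ± 0.21 had the same sign as that of IL7R and did not pass (limma adjusted p = 0.927). IL9R was at 0.06 ± 0.17 and IL4R at -0.01 ± 0.17, each with overlapping groups.

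The measured relatives of LRRN3 had differences near 0 or above it. Of the 4, limma called 0, with 0 at an unadjusted p under 0.05 and a median of 0.19. LRRN1 was at -0.004 ± 0.27, LRRN2 at 0.28 ± 0.27, LRRN4 at 0.13 ± 0.24 and LRRN4CL at 0.25 ± 0.19, the last with all treated arrays above the untreated ones.

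LRRN3 and CCR7 are genes of naive and central memory cells, and other genes of that state were split. Of 16 measured, 0 were called, 8 were positive and 8 negative, and the median was 0.00. In the limma fit 3 reached an unadjusted p under 0.05, beside 5.11% of all genes. Groups did not overlap in 10, 4 higher and 6 lower, beside 31.6% of all genes. SATB1, a chromatin organiser of T-cell development, went from 129 and 111 to 226 and 189 (log2 difference 0.72 ± 0.18). The repressor BCL6 went from 103 and 118 to 174 on each treated array (0.59 ± 0.17), and SERINC5, a membrane protein, from 768 and 902 to 602 and 530 (-0.55 ± 0.18). Each of the 3 had an adjusted p of 0.927.

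Added after their values were seen, the transcription factor LEF1, which marks naive cells, read 3808 and 3791 untreated and 3253 and 3234 treated (log2 difference -0.23 ± 0.16). KLF2, which controls exit from lymphoid tissue, read 203 and 135 against 150 and 101, with overlap (-0.38 ± 0.26). The gene for the costimulator CD27 was at 0.30 ± 0.18.

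Of the effector and tissue-resident memory genes, 1 of 14 was called by limma, and the median was 0.04. CD69, an activation marker that also retains cells in tissue, rose from 541 and 612 to 3016 and 3077 (log2 difference 2.37 ± 0.17, adjusted p = 0.0224). The call was lost without untreated replicate 1 (2.29 ± 0.21, adjusted p = 0.329) and without untreated replicate 2 (2.46 ± 0.21, 0.192). In these fits the lone untreated array is assumed to vary like the treated ones. Adjusted p-values of CD69 ran from 1.29e-95 to 0.329 over all alternatives. No other gene of the list had an unadjusted p under 0.05. The next were the cytotoxic genes PRF1 at -0.28 ± 0.17 and GZMK at 0.26 ± 0.17 (adjusted p = 0.999 each).

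CCR4 and CCR8 are also linked to type 2 helper and regulatory T cells. In the type 2 helper and cutaneous lymphoma list, limma called 0 of 14, 3 reached an unadjusted p under 0.05, and the median was 0.02. PTGDR2 encodes CRTH2, the prostaglandin D2 receptor of type 2 helper cells. It went from 218 and 268 to 138 and 122, without overlap, a log2 difference of -0.82 ± 0.19 (adjusted p = 0.877). STAT4 at 1.08 ± 0.19 (0.515) and the transcription factor MAF at 0.66 ± 0.20 (0.927) were higher on the treated arrays. GATA3, the defining type 2 factor, was added after its value was seen and read 2213 and 2259 against 2555 and 2296 (0.11 ± 0.17).

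Of the regulatory T-cell genes, limma called 0 of 9, 1 reached an unadjusted p under 0.05, and the median was -0.10. LRRC32, which presents latent TGF-β, was dim and went from 31.3 and 17.9 to 37.3 and 53.7 (log2 difference 0.61 ± 0.23, adjusted p = 0.942). IL10 was at -0.36 ± 0.18 and the costimulator ICOS at -0.34 ± 0.17 (0.991 each), both with groups that did not overlap. FOXP3, the defining factor, was looked at after its value was known and read 148 and 107 untreated and 117 and 116 treated (-0.10 ± 0.20).

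**Figure D3:**
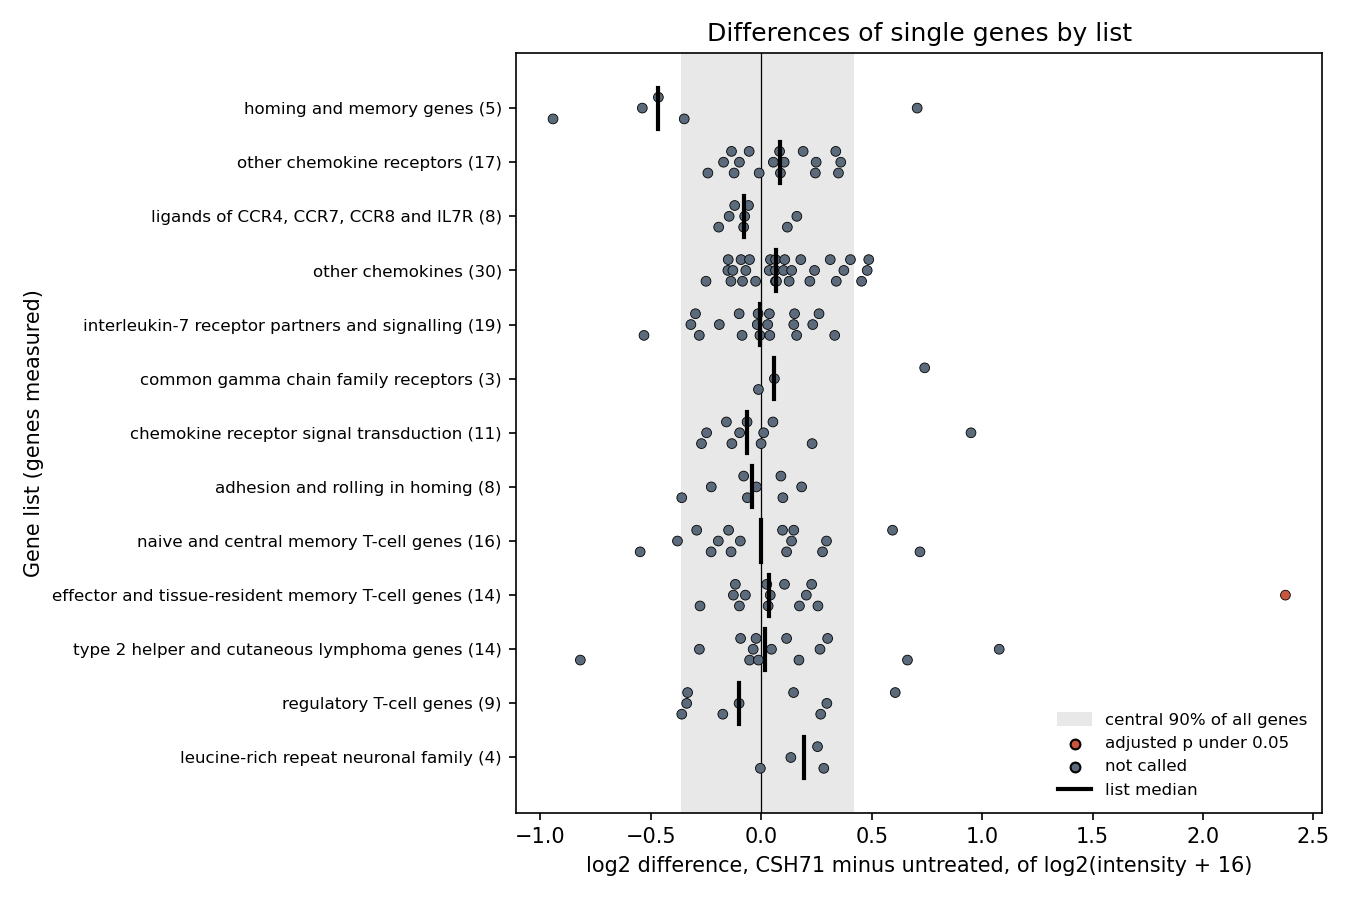
Log2 difference (CSH71 minus untreated, of log2 of intensity + 16) of every measured gene in each list; each point is a gene, the black bar is the list's median, and the grey band spans the central 90% of all genes. CCR4 lies just inside the band and the other 4 homing and memory genes outside it, whereas the medians of the other lists lie between -0.10 and 0.19 and CD69 is the one called gene.

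The genes whose pattern over the 4 arrays was nearest to each of the 5 were sought among 7441 genes brighter than the median gene. Likeness was the distance between log2 values centred on each gene's own mean, so it reads shape and not level. For CCR4 they were the pseudogene RPL23AP87 (distance 0.0226), SELPLG (0.035) and the interferon-induced gene ISG15 (0.0352). SELPLG also stood in the adhesion list above. For CCR7 they were the long noncoding RNA GRASLND (0.043), RNF43 (0.0454) and ZNF362 (0.0504), and for CCR8 NOL4L (0.0422), GRASLND (0.0739) and FSIP1 (0.0782). GRASLND was near to CCR7 and CCR8 alike, with a log2 difference of -0.47. The nearest to IL7R were RPL37A (0.0516), ATG16L1 (0.0596) and FHL2 (0.0741). LRRN3 had the most distant neighbours, HHIP at 0.097, SNAR-G2 at 0.192 and RSAD2 at 0.203. With 4 arrays many genes share a pattern, so these names are a description of nearness in these libraries.

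The labelled cell type was checked against marker genes. Of the T-cell markers, LCK, ZAP70, LAT, CD247 and CD5 read 705 to 2099.7 on all arrays and CD4 384 to 452, while CD2 read 60.9 to 91.6. The genes of the CD3 delta, epsilon and gamma chains were not analysed here. The summed intensity of 9 T-cell markers was 7963 and 8125 untreated and 8248 and 7745 treated, so it overlapped between the groups. The sums of 5 monocyte markers (575 and 431 against 419 and 530) and of 2 B-cell markers (503 and 360 against 328 and 454) overlapped too, and so did that of 5 epithelial and fibroblast markers (2384 and 2309.8 against 2271 and 2478). The sum of CD8A and CD8B did not overlap, at 224 and 227 untreated and 234 and 257 treated, and its part in the results was not tested. The epithelial and fibroblast sum came mostly from EPCAM, an epithelial adhesion gene that was bright at 1943 to 2169 on all 4 arrays. Array medians over all probe sets were 77.5 and 71.5 for the untreated and 73.6 and 81.1 for the treated arrays, and no 2 arrays were copies of each other.

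With an added constant of 1 or 64, quantile normalization or median centring, the difference of CCR4 ran from -0.39 to -0.34, of CCR7 from -0.51 to -0.46, of CCR8 from -0.58 to -0.52, of IL7R from 0.66 to 0.72 and of LRRN3 from -0.99 to -0.91. With 1 array left out at a time, they ran from -0.39 to -0.30, -0.53 to -0.40, -0.61 to -0.47, 0.60 to 0.81 and -1.0 to -0.89 in the same order. Groups that do not overlap cannot change sign when an array is left out, so those ranges show its weight and are no check of direction.

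**Figure D4:**
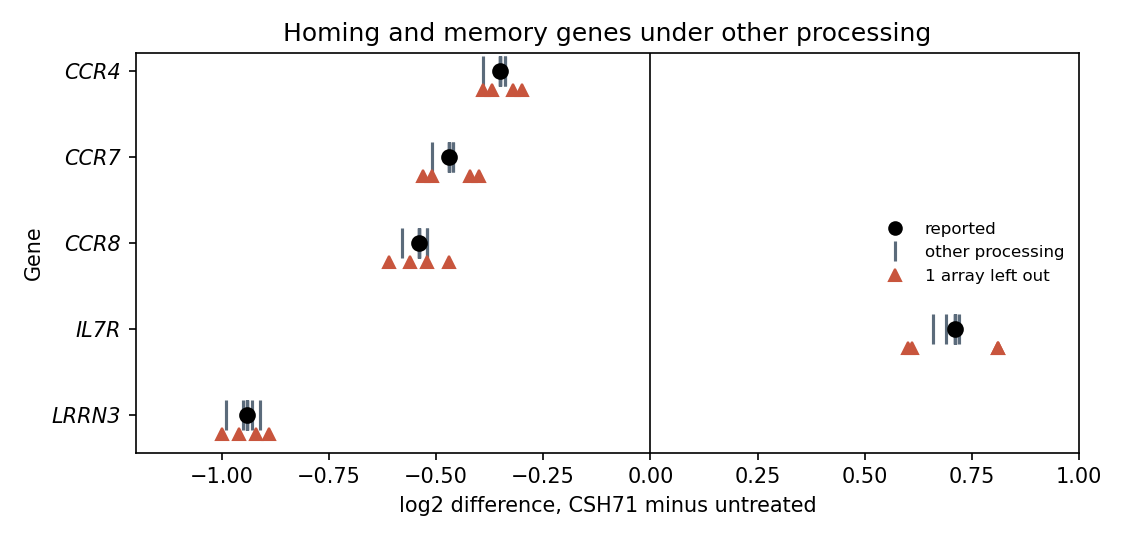
Log2 difference (CSH71 minus untreated) of the 5 genes as reported (black circles), under other processing (grey ticks) and with 1 array left out (triangles). Every value of CCR4, CCR7, CCR8 and LRRN3 lies below 0, and every value of IL7R lies above 0.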

How the data were processed

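The deposited table holds linear probe-set intensities of 4 arrays, which the authors made with Affymetrix Expression Console, per the submitters' processing notes. Version, background correction, normalization and genome build were not given in the sources used here, and there is no detection call. Of 53617 probe sets, 16098 had a symbol in the platform annotation. Of several probe sets of a gene, the one with the highest mean was kept, which left 14884 genes.

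Values were taken as log2(intensity + 16), without further normalization, and compared with limma 3.58.1 in R 4.3.3 (2 group means, default prior, Benjamini-Hochberg adjustment). Intervals cover 95%. On data simulated for this comparison (14884 genes, 200 of them changed, 10 runs), it called 16.1% of 2-fold and 94.3% of 4-fold changes. These rates hold for that number of changed genes, which is not known for the measured arrays. They also hold for independent normal errors whose spread was drawn without regard to a gene's intensity. The number of arrays limits the precision.

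The 5 genes and all lists were chosen with earlier results of these data known. Named from each list were the 3 genes with the smallest p and any called gene, from the ligand, common gamma chain and LRRN lists every gene, and for each of the 5 the 3 nearest genes by pattern. Alternatives were added constants of 1 and 64, quantile normalization, median centring, a filter that drops the dimmest 40% of genes, an intensity trend in the prior, averaged probe sets, a fit of every probe set, the replicate number as a block, and each array left out. Promoter windows came from RefSeq (GRCh38.p14). Figures were drawn with matplotlib 3.10.9.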

Additional observations from a re-analysis of the deposited data

How the results depend on the processing

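The log2 differences of CCR4, CCR7, CCR8, IL7R and LRRN3 kept their sign in the 10 alternatives that use all 4 arrays, of which only the constants of 1 and 64, quantile normalization and median centring can change these values. With an array left out, the sign could not turn and the shift could not exceed the replicate SD, since the groups do not overlap and each holds 2 arrays. The number of genes called varied. Against 7 genes called as reported (6 higher, 1 lower), limma called 33 with a constant of 64, 43 after median centring (32 higher, 11 lower), 11 without the dimmest 40%, 143 with an intensity trend in the prior, and 0 with a constant of 1 (768 at an unadjusted p under 0.05), after quantile normalization (927) or over all 53617 probe sets (2367). The last tests more features at once; the other causes were not tested. Leaving out 1 array gave 0 (without untreated replicate 1 or 2, with 794 and 609 at an unadjusted p under 0.05) to 29 calls, with 29 without CSH71 replicate 1 and 20 without CSH71 replicate 2. In each, the lone array of its group is assumed to vary like the other group.

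Of the 171 listed genes measured beside the 5, 1 was called as reported, 3 with a constant of 64, 2 after median centring, 7 with the trend, and 0 with a constant of 1, after quantile normalization or over all probe sets, and 0 to 1 with an array left out. Among the 5 genes, LRRN3 was called with a constant of 64 (limma adjusted p = 0.0108) and after median centring (0.0288). With the trend all 5 were called, beside 143 of all 14884 genes. In the other alternatives that use all 4 arrays 0 of the 5 were. As the 5 were chosen for their differences, nothing is read from these calls. With the trend, median centring or the replicate block limma gave an infinite prior. It replaces the variance of each gene by one shared over genes (of like intensity, for the trend).

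With the replicate number as a block, 28 genes and 2 listed genes were called; the labels do not say that the numbers pair the samples, and the deviations of same-numbered arrays from their group means correlated at -0.29 across genes. A crossed pairing, added after the data were seen, gave 0 calls among all genes (1291 at an unadjusted p under 0.05) and 0 among listed genes. The deposited values carry no background level, so no dim gene is called present or absent.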

Other observations

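On the CSH71 arrays all 5 genes, IL7R included, were brighter in replicate 1 than in replicate 2, by 0.092 (CCR4) to 0.202 (IL7R) on the log2 scale. On the untreated arrays CCR4, CCR7, CCR8 and IL7R were brighter in replicate 2, by 0.0357 to 0.199, and LRRN3 was brighter in replicate 1, by 0.0415. The array medians were 73.6 and 81.1 for CSH71 replicates 1 and 2 and 77.5 and 71.5 for untreated replicates 1 and 2, the opposite order to these genes except for LRRN3 on the untreated arrays. The part of array brightness in the differences was not tested beyond the ranges given for median centring and quantile normalization.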
